A study of Mus musculus with 2 samples.

Results

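The genes described here are 38 antioxidant and glutathione enzymes and their regulators, out of 43346 Ensembl genes in each deposited table. They were chosen by name as superoxide dismutases, peroxidases, peroxiredoxins, thioredoxins, glutaredoxins, glutathione enzymes, heme oxygenases and the sensors of this system, and every name had a row in both tables. The material was 2 pools of 30 Purkinje cells, the output neurons of the cerebellar cortex, cut from tissue by laser capture. Both pools came from male B6CASTF1/J mice, a first-generation cross of C57BL/6 with a Castaneus strain, aged 14 months and carrying no treatment or engineered allele named in the labels. Per the labels the pools are biological replicates 1 and 2, yet they share 1 donor identifier, so any standard deviation (SD, n = 2) covers the spread of 2 captures that could be technical. There is 1 group and no contrast, so the data give the level of each gene and how far the pools differ, here pool 1 over pool 2.

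Cells make superoxide and hydrogen peroxide as by-products of respiration and of other oxidase reactions. Superoxide dismutases turn superoxide into hydrogen peroxide, and catalase, glutathione peroxidases and peroxiredoxins reduce the peroxide. The electrons come from thioredoxin and from glutathione, a tripeptide with a reactive cysteine, and both are kept reduced with NADPH. Many of these genes are induced by the transcription factor NRF2, encoded by Nfe2l2, which the adaptor KEAP1 holds down until electrophiles or oxidants modify it.

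Glutathione peroxidases 1, 3 and 4 and the thioredoxin reductases use selenocysteine, which is read from a TGA that elsewhere ends translation. The coding sequence around that codon is shown because it is what sets these 5 members apart chemically. Each is from the GENCODE M21 transcripts, 5′ to 3′ on the plus strand, and the capitals mark the selenocysteine codon. The TGA lay at codon 47 of 201 in Gpx1-201 (chr9:108339451-108339453), codon 73 of 226 in Gpx3-201 (chr11:54907256-54907258) and codon 33 of 157 in Gpx4-207 (chr10:80054737-80054739). In the reductases it was the last codon but 1, codon 498 of 499 in Txnrd1-201 (chr10:82896037-82896039) and codon 526 of 527 in Txnrd2-203 (chr16:18477772-18477774). In all 5 the next codon was ggc or ggt, both of which encode glycine.
Gpx1: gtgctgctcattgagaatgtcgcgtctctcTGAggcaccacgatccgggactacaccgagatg
Gpx3: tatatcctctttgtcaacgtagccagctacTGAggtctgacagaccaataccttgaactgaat
Gpx4: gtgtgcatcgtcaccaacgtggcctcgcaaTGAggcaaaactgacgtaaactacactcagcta
Txnrd1: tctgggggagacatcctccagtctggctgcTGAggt
Txnrd2: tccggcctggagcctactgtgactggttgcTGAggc

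NRF2 binds the antioxidant response element, whose core was searched as TGACNNNGC on both strands of RefSeq promoter windows (GRCm38.p6, 250 bases before to 50 after each start). Of the 38 genes, 32 had a window, and 8 of those 32 (25%) held the core, against 14.0% of 27025 genes with a window. Counted by window, 8 of 45 member windows (17.8%) held it, against 12.4% of 32851. A match describes these letters only. The 8 windows of 29 bases are shown on the strand that carries the core, which stands in capitals.
Gclm, chr3:122245413-122245441, minus strand: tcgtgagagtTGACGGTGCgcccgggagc
Gstm5, chr3:107895802-107895830, plus strand: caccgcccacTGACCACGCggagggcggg
Mgst1, chr6:138140461-138140489, minus strand: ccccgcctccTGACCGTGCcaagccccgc
Nfe2l2, chr2:75704885-75704913, minus strand: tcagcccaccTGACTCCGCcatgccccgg
Prdx1, chr4:116685456-116685484, minus strand: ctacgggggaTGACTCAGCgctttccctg
Sod1, chr16:90220696-90220724, minus strand: ggcctgagtcTGACCACGCccaccttggc
Srxn1, chr2:152105542-152105570, minus strand: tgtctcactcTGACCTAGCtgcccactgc
Txnrd1, chr10:82859104-82859132, minus strand: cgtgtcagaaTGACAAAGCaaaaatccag

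Positions are counted along the strand of the gene, whichever strand carries the core. So counted, the core began 134 bases before the start site in Gclm, 133 in Prdx1, 92 in Txnrd1 and 240 in Nfe2l2. It began 56 bases before the start in Sod1 and Mgst1, 42 before it in Gstm5 and 29 after it in Srxn1. The genes that hold it span the whole range of levels, since Sod1 was the highest member and Txnrd1 among the lowest. No window was matched for Sod3, Prdx6, Gsr, Gclc, Gsta4 or Hmox1.

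Over Ensembl genes, pool 1 had 31437208 expected counts and pool 2 had 28591230, and the smallest total of any member over both pools was 46. Levels are in TPM, the abundance of a transcript relative to all transcripts of its library, which correct for transcript length and so allow genes to be compared with each other. Defining Purkinje cell markers were high in both pools, with 6 of 6 detected and a summed TPM of 30218 in pool 1 and 29998 in pool 2. Markers of Bergmann glia and astrocytes, which wrap Purkinje cells, were also present, with 11 of 12 detected and sums of 2829 in pool 1 and 4970 in pool 2. Hemoglobin and other red blood cell markers summed to 2453 in pool 1 and 16.3 in pool 2. The sums in pool 1 and pool 2 were 28.3 and 36.7 for granule cells, 35.5 and 51.7 for oligodendrocytes, 19.1 and 13.82 for endothelial and mural cells, and 3.51 and 3.26 for microglia. No marker on these lists was at 0 in either pool, and less RNA per cell cannot be told apart from fewer cells of a type.

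Purkinje pools carried most of this system at moderate to high levels. Of the 38 members, 32 reached a TPM of 1 in both pools, where 16.4% of all Ensembl genes and 30.3% of protein-coding genes did so. The median mean TPM of those 32 was 28.2, against 5.36 over the 7094 genes detected in both pools, and 27 of them lay above 5.36. Hmox1 and Keap1 reached a TPM of 1 in pool 2 but not in pool 1. Sod3, Gpx3, Txnrd1 and Txnrd2 stayed below 1 in both pools.

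**Figure D1:**
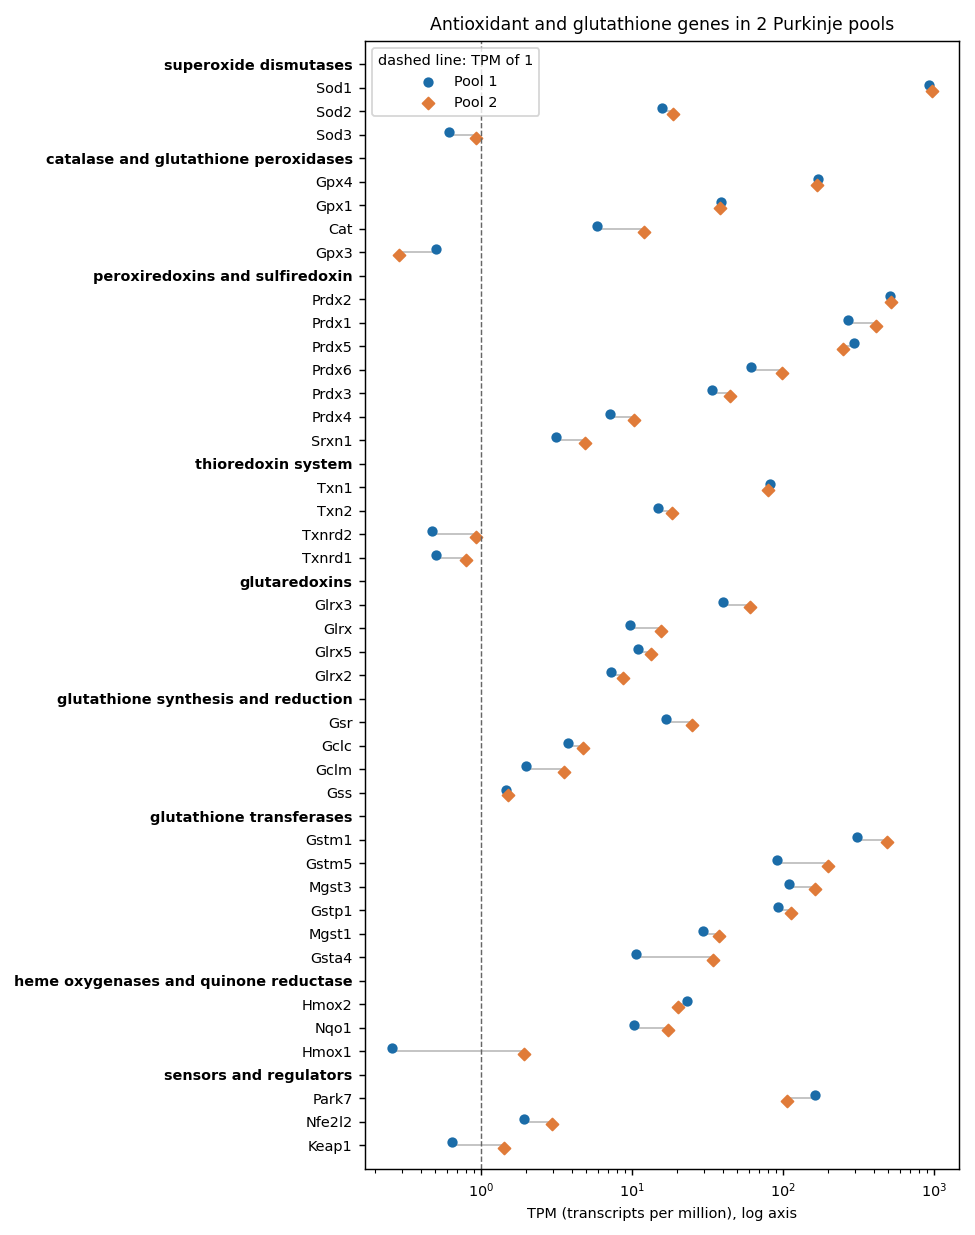
TPM of each member on a log axis, by class and by falling mean within a class, with pool 1 as circles and pool 2 as diamonds and the dashed line at a TPM of 1. Sod1 stands furthest right at 935 in pool 1 and 977 in pool 2, and the widest gap on this axis is that of Hmox1, at 0.26 in pool 1 and 1.93 in pool 2.

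The highest member was Sod1, the copper and zinc superoxide dismutase of the cytosol (ENSMUSG00000022982.9, chr16:90220754-90226329, plus strand). It had 935 TPM in pool 1 and 977 in pool 2. Its mean, 956 ± 30.0 (SD, n = 2), lies at percentile 98.2 of the genes detected in both pools. The mitochondrial manganese enzyme Sod2 (ENSMUSG00000006818.4) had 15.95 TPM in pool 1 and 18.8 in pool 2. Extracellular Sod3 had 0.62 TPM in pool 1 and 0.93 in pool 2, from 88 and 113 counts. The class thus held 28.1% of the members' summed TPM in pool 1 and 25.1% in pool 2, nearly all of it from the cytosolic enzyme. Ccs, the chaperone that loads copper into SOD1, had 3.96 TPM in pool 1 and 4.09 in pool 2.

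Among the enzymes that reduce peroxides with glutathione, Gpx4 was the highest. It encodes the peroxidase that acts on lipid hydroperoxides in membranes and guards against ferroptosis (ENSMUSG00000075706.6, chr10:80047166-80056439, plus strand). Gpx4 had 169.96 TPM in pool 1 and 168.31 in pool 2, with an SD of 1.17 around a mean of 169 (n = 2). The cytosolic enzyme Gpx1 had 38.96 TPM in pool 1 and 38.41 in pool 2. The plasma enzyme Gpx3 had 0.51 TPM in pool 1 and 0.29 in pool 2, from 31 and 15 counts. Cat, the catalase of peroxisomes, had 5.85 TPM in pool 1 and 12.01 in pool 2. Gpx4 and Gpx1 were nearly level between pools, whereas catalase was lower in pool 1. The other family members listed, Gpx2, Gpx5, Gpx6, Gpx7 and Gpx8, reached a TPM of 1 in both pools in 0 of 5 cases. Gpx8, an endoplasmic reticulum enzyme, had 0.72 TPM in pool 1 and 2.06 in pool 2, and its relative Gpx7 had 62 counts in pool 1 and 1 in pool 2. Gpx2 had 2 counts in pool 1 and 0 in pool 2.

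The peroxiredoxins, which reduce peroxides through a cysteine and are mostly recharged by thioredoxin, made up, with sulfiredoxin, the largest of the 9 classes by summed TPM, with 35.0% of the members' total in pool 1 and 33.7% in pool 2. The class sum takes in transcripts not annotated as protein coding. Prdx2-205, a retained intron form, had 367 TPM in pool 1 and 407 in pool 2. Prdx6-208, annotated as a target of nonsense-mediated decay, had 53.4 TPM in pool 1 and 83.4 in pool 2. The rank of the class was not recalculated without them. All 6 peroxiredoxins were detected in both pools. Prdx2, a cytosolic form known to be abundant in neurons (ENSMUSG00000005161.11, chr8:84969587-84974834, plus strand), had 510.47 TPM in pool 1 and 517.94 in pool 2. Cytosolic Prdx1 (ENSMUSG00000028691.8, chr4:116685544-116700822, plus strand) had 271 TPM in pool 1 and 416 in pool 2. Prdx5, found in mitochondria and peroxisomes (ENSMUSG00000024953.12, chr19:6906697-6910106, minus strand), had 298 TPM in pool 1 and 249.05 in pool 2. By TPM Prdx2 was nearly level between pools, although its centred log2 count ratio, explained with the pool differences, was 0.36. Prdx1 was lower and Prdx5 higher in pool 1 by TPM, with ratios of -0.30 and 0.43.

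Prdx6, the form with a single catalytic cysteine that draws on glutathione, had 61.3 TPM in pool 1 and 98.2 in pool 2. Mitochondrial Prdx3 had 33.8 TPM in pool 1 and 44.4 in pool 2. Prdx4 of the endoplasmic reticulum had 7.13 TPM in pool 1 and 10.3 in pool 2. All 3 were lower in pool 1 by TPM, where 32.0% of all genes detected in both pools were higher. Srxn1, the sulfiredoxin that repairs overoxidised peroxiredoxins, had 3.16 TPM in pool 1 and 4.94 in pool 2, the lowest mean of this class.

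Thioredoxin itself was plentiful and its reductases were not. Txn1, the cytosolic thioredoxin, had 82.1 TPM in pool 1 and 79.4 in pool 2, and mitochondrial Txn2 had 14.9 TPM in pool 1 and 18.3 in pool 2. Txnrd1, the cytosolic reductase that returns electrons to it from NADPH, had 0.51 TPM in pool 1 and 0.80 in pool 2, from 69 and 93 counts. Txnrd2, the mitochondrial reductase, had 0.48 TPM in pool 1 and 0.93 in pool 2, from 35 and 45 counts. Both reductases therefore stayed under a TPM of 1 in each pool, and both pools had reads of each. The posterior mean TPM in the deposited tables, another estimate from the same reads, averaged 1.57 for Txnrd2.

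The glutaredoxins, which use glutathione to reduce disulfides or to carry iron-sulfur clusters, were all detected in both pools. Glrx3, a cytosolic iron-sulfur carrier, had 39.98 TPM in pool 1 and 60.97 in pool 2. Glrx, the classical cytosolic form, had 9.76 TPM in pool 1 and 15.7 in pool 2. Mitochondrial Glrx5 had 11.1 TPM in pool 1 and 13.45 in pool 2. Glrx2, a mitochondrial form, had 7.28 TPM in pool 1 and 8.82 in pool 2. All 4 had the lower TPM in pool 1, as did most genes detected in both pools. The counts of Glrx2 ran the other way, as given with its transcripts.

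Genes of glutathione synthesis were low next to the enzymes that use it. Gclc, the catalytic subunit of the rate-limiting ligase, had 3.78 TPM in pool 1 and 4.77 in pool 2. Gclm, its modifier subunit, had 2.01 TPM in pool 1 and 3.55 in pool 2. Gss, glutathione synthetase, had 1.48 TPM in pool 1 and 1.52 in pool 2, the lowest mean of the 32 detected members. Gsr, the reductase that regenerates glutathione with NADPH, was higher, with 16.8 TPM in pool 1 and 25.2 in pool 2. The class of 4 summed to 24.1 TPM in pool 1 and 35.0 in pool 2, which was 0.711% and 0.880% of the members' total.

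Glutathione transferases, which couple glutathione to electrophiles, held 19.01% of the members' TPM in pool 1 and 26.1% in pool 2. Gstm1 (ENSMUSG00000058135.8, chr3:108012255-108017973, minus strand) had 308 TPM in pool 1 and 492 in pool 2. Gstm5, also of the mu class (ENSMUSG00000004032.6, chr3:107895821-107898686, plus strand), had 91.9 TPM in pool 1 and 198 in pool 2. Gsta4, an alpha class enzyme active on the lipid peroxidation product 4-hydroxynonenal (ENSMUSG00000032348.5, chr9:78182774-78209349, plus strand), had 10.7 TPM in pool 1 and 34.3 in pool 2. All 3 had less TPM in pool 1, as did most genes detected in both pools.

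Gstp1, the pi class enzyme, had 92.6 TPM in pool 1 and 114 in pool 2. The membrane-bound relatives were Mgst3, with 110.33 TPM in pool 1 and 162.64 in pool 2, and Mgst1, with 29.8 TPM in pool 1 and 38.1 in pool 2. Each of the 6 had less TPM in pool 1, where 32.0% of all genes detected in both pools had more. The near-identical copy Gstp2 was listed at 7.25 TPM in pool 1 and 9.07 in pool 2, so the split of reads between it and Gstp1 is uncertain, while Gstp3 was listed at 0.

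Of the heme oxygenases, which break down heme, the constitutive form was expressed and the inducible form was near the detection limit. Hmox2 had 23.1 TPM in pool 1 and 20.3 in pool 2. Hmox1 (ENSMUSG00000005413.7, chr8:75093621-75100589, plus strand) had 0.26 TPM in pool 1 and 1.93 in pool 2, from 16 and 70 counts. Nqo1, a quinone reductase and a widely used NRF2 target, had 10.3 TPM in pool 1 and 17.3 in pool 2. Hmox2 shares 892 exonic bases with Cdip1 on the opposite strand, which had 1255 counts in pool 1 and 2056 in pool 2, so its level is uncertain.

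The sensors were unequal. Park7, which encodes the redox-sensitive chaperone DJ-1 (ENSMUSG00000028964.10, chr4:150897133-150914437, minus strand), had 163 TPM in pool 1 and 106 in pool 2. Nfe2l2 had 1.94 TPM in pool 1 and 2.95 in pool 2, and Keap1 had 0.65 TPM in pool 1 and 1.43 in pool 2, from 81 and 153 counts. The pair that sets NRF2 activity thus stood among the lowest members, and the mean of Nfe2l2 was at percentile 24.03 of the genes detected in both pools.

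Arranged by mean TPM, the members run from Sod1 to Gpx3 at 0.40 ± 0.156 (SD, n = 2), and most neighbours overlap. Sod1 exceeded Prdx2 in each pool's value by a mean difference of 442 TPM, more than the larger SD of 30.0. Prdx2 and Gstm1 did not overlap either, but their means differed by 114 TPM with an SD of 130.2 for Gstm1. Ranges also did not overlap between Prdx5 and Gpx4, Gstp1 and Txn1, Prdx6 and Glrx3, Gpx1 and Mgst1, Glrx2 and Gclc, and Nfe2l2 and Gss. The remaining neighbours in the order overlapped over the pools. By compartment, the 7 mitochondrial members summed to 381 TPM in pool 1 and 354 in pool 2, most of it Prdx5. The 3 secreted or endoplasmic reticulum members (Sod3, Gpx3 and Prdx4) summed to 8.26 TPM in pool 1 and 11.55 in pool 2.

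Differences between the pools are given from here on as the log2 ratio of expected counts, pool 1 over pool 2, minus its median over the 7094 genes detected in both pools, which makes them free of how the libraries are scaled. Most members were modestly lower in pool 1 on this measure, and few differed by much. Of all 38, 26 lay below the median gene and 12 above, with a median of -0.29. Of the 32 detected in both pools, 21 lay below it, where 50% of genes do by construction, and 11 above. On total counts without centring, 29 were lower and 9 higher in pool 1, and on spike-in totals the split turned to 4 lower (Hmox1, Gsta4, Keap1 and Gstm5) and 34 higher, since that scaling puts the median of all detected genes at 0.80. By TPM, 31 of the 38 were lower in pool 1 and 7 higher, and 32.0% of all detected genes were higher there.

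Of the 38 members, 3 were more than 2-fold from the median, where 31.9% of genes with at least 10 counts were, at any level. Of the 32 detected in both pools it was 1, Gsta4, against 9.83% of the 7094. At a mean TPM of 1 to 10 it was 0 of 8 members, against 11.9% of genes. At 10 to 100 TPM it was 1 of 14, against 6.98%, and at 100 to 1000 TPM 0 of 10, against 2.91%. Gsta4 had 372 counts in pool 1 and 1029 in pool 2, a log2 ratio of -1.44. Hmox1, with a ratio of -2.10, and Gpx3, with 1.08, were the other two, both from under 100 counts in total. Gpx3 lost its place on the log2(TPM + 1) scale, with 0.42. The nearest members inside the threshold were Keap1 at -0.89 and Park7 at 0.86. An exact binomial test between the libraries, which says nothing of conditions, called 28 of the 38 at an adjusted p threshold of 0.05, 18 lower and 10 higher in pool 1, against 65.8% of genes.

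**Figure D2:**
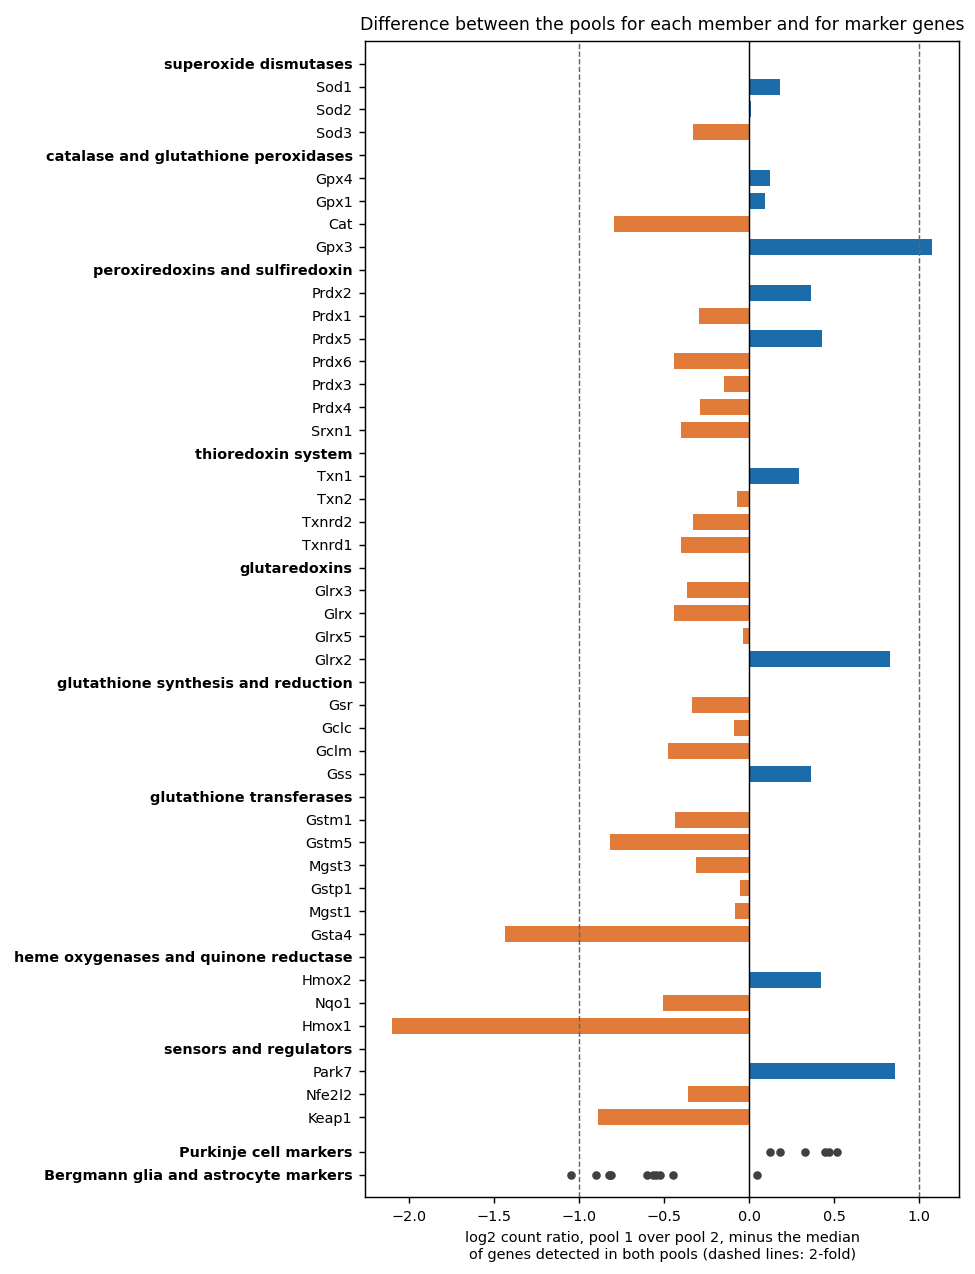
Log2 count ratio of each member, pool 1 over pool 2, minus the median over genes detected in both pools, as bars from 0 with blue higher in pool 1 and orange lower, and dashed lines at 2-fold. The points below are single markers detected in both pools, with the 6 Purkinje cell markers to the right of 0 and 10 of the 11 Bergmann glia and astrocyte markers to the left, while all 6 glutathione transferases lie left of 0 on this centred scale, against 2 of the 6 on spike-in totals.

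By class, every glutathione transferase lay on the same side, with 6 of 6 below the median gene (on spike-in totals 2 of 6 were lower) and a class median of -0.38. No other class had all its genes on the same side. The ratios were -1.44 for Gsta4, -0.82 for Gstm5, -0.44 for Gstm1, -0.31 for Mgst3, -0.08 for Mgst1 and -0.05 for Gstp1. The last pair lay close to the median gene. The glial markers moved with these genes, since 10 of 11 detected Bergmann glia and astrocyte markers were lower in pool 1 with a median of -0.60, while 6 of 6 Purkinje cell markers were higher with a median of 0.38. Of the defining glial markers, Slc1a3 had 1309.5 TPM in pool 1 and 2298.4 in pool 2, and Gja1 had 401 TPM in pool 1 and 842 in pool 2. The part of glial RNA in the difference of the transferases was not tested.

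Among the other members below the median gene were Cat at -0.79, Nqo1 at -0.51, Gclm at -0.48, Prdx6 at -0.44 and Glrx at -0.44. Srxn1 and Txnrd1 had -0.40, and Glrx3, Nfe2l2, Gsr, Txnrd2 and Sod3 lay between -0.36 and -0.33. Prdx1, Prdx4 and Prdx3 had -0.30, -0.29 and -0.15. Above the median gene were Park7 at 0.86, Glrx2 at 0.83, Prdx5 at 0.43, Hmox2 at 0.42, Prdx2 at 0.36, Gss at 0.36, Txn1 at 0.29 and Sod1 at 0.18. Sod2, Glrx5, Gstp1, Txn2, Mgst1, Gclc, Gpx1 and Gpx4 stayed within 0.13 of it. Red blood cells carry much PRDX2, catalase and GPX1, and the red blood cell markers had a median ratio of 7.27. The ratios of these 3 enzymes were 0.36, -0.79 and 0.09, and the part of red blood cell RNA in them was not tested.

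Across the 32 detected members the log2 ratios had an SD of 0.47, against 0.63 over all genes detected in both pools. Set beside genes of like level, the SD at a mean TPM of 10 to 100 was 0.45 for 14 members and 0.58 for 1849 genes. At 100 to 1000 TPM it was 0.49 for 10 members and 0.71 for 481 genes, and at 1 to 10 TPM it was 0.52 for 8 members and 0.65 for 4638 genes. Over all genes as listed, the SD of the members was the smaller in each of these ranges, with no test made. At 100 to 1000 TPM, however, the SD of 0.71 takes in hemoglobin transcripts with extreme ratios. Hba-a2 stood at 7.62, Hba-a1 at 7.48 and Hbb-bs at 7.05. The SD was not recalculated without red blood cell markers. Those hemoglobin genes supply most of the variance behind 0.71, so a smaller spread of the members is not shown for that range. Hbb-bt, at 6.26, falls in the range of 10 to 100 TPM.

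The deposited transcript tables split each gene's reads over the transcripts listed there, from GENCODE M4. Of the 38 members, 14 had a single listed transcript and 24 had several. GENCODE M21 holds further transcripts of some members, such as Txnrd1. In 23 of those 24 with several, the highest transcript by TPM was the same in both pools. The exception was Gss, for which Gss-207, a retained intron form, led in pool 1 with 43.4% and Gss-203, which is protein coding, led in pool 2 with 52.3%. For 2 members the leading transcript in both pools was not annotated as protein coding in GENCODE M21. Prdx2-205, a retained intron form of 549 bases, held 71.8% of the gene's TPM in pool 1 and 78.5% in pool 2, but 50.4% and 60.6% of its counts. Prdx6-208, annotated as a target of nonsense-mediated decay, held 87.2% of TPM in pool 1 and 85.0% in pool 2. Prdx2-208, the highest coding form of that gene, held 20.7% of TPM in pool 1 and 14.1% in pool 2.

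Most of the TPM of Gpx4 was in 2 coding transcripts that both hold the selenocysteine codon. Gpx4-207 had 46.8% of TPM in pool 1 and 51.4% in pool 2, and Gpx4-202 had 33.9% in pool 1 and 39.7% in pool 2. Gpx4-203, a retained intron form of 280 bases, had 18.8% of TPM in pool 1 and 8.14% in pool 2, but 5.44% and 2.15% of the counts. Gpx1-201, the form whose codon is shown above, had 73.5% of TPM in pool 1 and 100% in pool 2. Txnrd2-212, which led that gene with 100% in pool 1 and 72.5% in pool 2, is not among its transcripts with an annotated selenocysteine. Txnrd2-203, whose codon is shown above, was listed at 0 TPM in both pools. By posterior mean TPM, however, Txnrd2-203 averaged 0.205 and Txnrd2-212 averaged 0.255, and Txnrd2-204 led with 0.28. The other Txnrd2 transcripts with an annotated selenocysteine were not among those listed, so they have no level here. With 35 counts of the gene in pool 1 and 45 in pool 2, absence of the selenocysteine form is not shown.

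Glrx2 had 469 counts in pool 1 and 270 in pool 2, a log2 ratio of 0.83, although its TPM was lower in pool 1. The short Glrx2-202, of 580 bases, held 44.8% of TPM in pool 1 and 80.7% in pool 2. The long Glrx2-204, of 3515 bases, took 76.8% of the counts of Glrx2 in pool 1 and 50.9% in pool 2. On the log2(TPM + 1) scale the ratio of Glrx2 was -0.06, so its direction depends on which transcript the reads are given to. Likewise Prdx1-202 led its gene by TPM, with 45.4% in pool 1 and 49.6% in pool 2, while Prdx1-204 led by counts with 61.3% in pool 1 and 56.5% in pool 2.

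**Figure D3:**
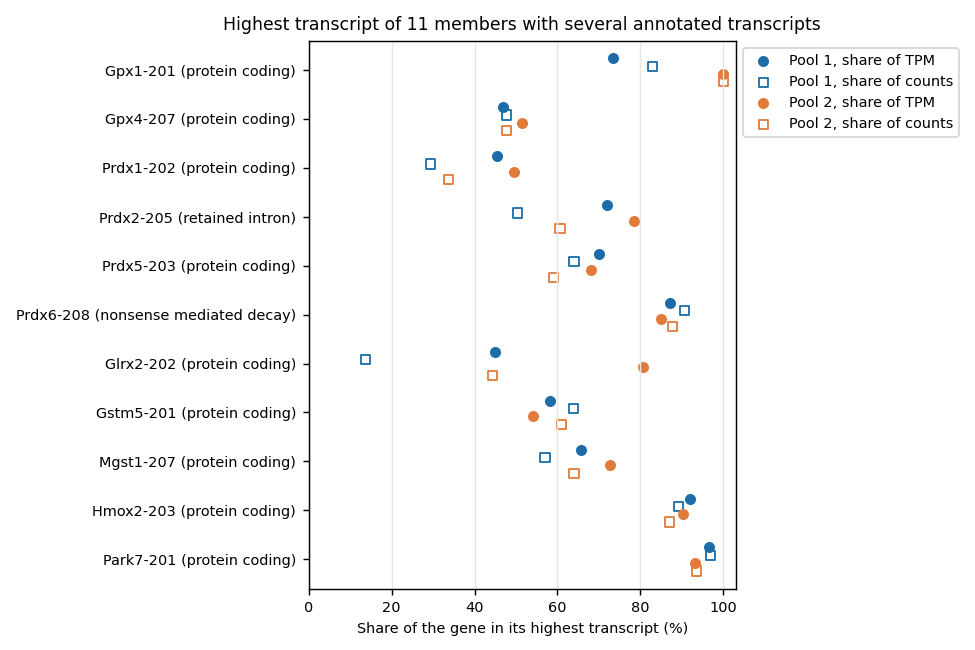
Share in percent of the gene's TPM (filled) and expected counts (open) in the leading transcript of 11 members with several transcripts, chosen after their values were seen, with pool 1 in blue and pool 2 in orange. The open and filled points of Glrx2-202 lie far apart, at 13.6% of counts and 44.8% of TPM in pool 1.

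Reads of members that overlap a gene on the other strand cannot be divided by strand. Prdx5 shares 409 exonic bases with Trmt112, Gss 395 with Acss2, Keap1 510 with Gm16754, Gclm 296 with Gm17494, Gstm5 178 with 4933431E20Rik, and Prdx2 177 with Rnaseh2a and 173 with Junb. Gclm also shares 244 bases with Gm6061 on its own strand. Of these neighbours, Trmt112 had the most counts, 1618 in pool 1 and 1131 in pool 2, while Junb had 3 in pool 1 and 1 in pool 2. The copies Prdx6b and Prdx6-ps2 were at 0 in both pools.

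Around these members, 122 further genes of the same chemistry were drawn in 12 lists, and 64 were detected in both pools and 44 in neither. Of the 64, 34 lay above the median gene and 30 below in pool 1, and 6 were past 2-fold, against 9.83% of detected genes. The genes past 2-fold, a share near that background, were all lower in pool 1. How many of all genes past 2-fold were lower there was not calculated, so this direction cannot be called particular to the lists. Of the 11 detected Bergmann glia and astrocyte markers, 10 were lower in pool 1 (median -0.60), and their part was not tested. The ratios of the 6 genes were -1.78 for Ggct, -1.45 for Idh1, -1.44 for Idh2, -1.19 for Nadk2, -1.01 for Nadk and -1.004 for Pdia6. Idh1, a cytosolic source of NADPH, had 5.72 TPM in pool 1 and 18.6 in pool 2, and Ggct, which cyclises gamma-glutamyl dipeptides of glutathione breakdown, had 5.07 TPM in pool 1 and 17.6 in pool 2. Idh2, the mitochondrial counterpart, and the NAD kinases Nadk and Nadk2, which make NADP, had mean levels under 10 TPM. Over the whole NADPH list, 5 of the 11 detected genes lay above the median gene and 6 below, with a median of -0.24.

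The thioredoxin relatives had 8 of 11 detected in both pools, led by Tmx2, a transmembrane family member, with 93.8 TPM in pool 1 and 131.1 in pool 2, and then Txndc17 and Txnl1, both cytosolic. The glutaredoxin relatives were led by Sh3bgrl3, with 66.8 TPM in pool 1 and 39.4 in pool 2, followed by Sh3bgrl and the lower Sh3bgrl2. Of 19 further glutathione transferases 6 were detected in both pools, and Gstm7, Gsto1 and Gstp2 led them, with means of 20.2, 8.64 and 8.16 TPM. In glutathione turnover, 6 of 12 were detected, and the highest were the glyoxalases that clear methylglyoxal. Glo1 had 159 TPM in pool 1 and 183 in pool 2, and Hagh had 59.1 TPM in pool 1 and 58.5 in pool 2.

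Of 9 genes of cystine and precursor supply 3 were detected in both pools, Mat2a, Slc3a2 and Slc1a4. Slc1a4 had 1.03 TPM in pool 1 and 1.28 in pool 2. Mat2a, which makes S-adenosylmethionine, and Slc3a2, the heavy chain of amino acid exchangers, had means of 14.6 and 6.65 TPM, while Cth, cystathionine gamma-lyase, had 0.74 TPM in pool 1 and 3.38 in pool 2. Slc7a11, the cystine exchanger light chain, had 0.26 TPM in pool 1 and 0.13 in pool 2. The NADPH list had 11 of 13 detected, with Taldo1 of the pentose phosphate pathway at 23.7 TPM in pool 1 and 15.6 in pool 2. Me1, malic enzyme, had a mean of 10.1 TPM.

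Iron storage was prominent, with the ferritin chains Fth1 at 857 TPM in pool 1 and 691 in pool 2 and Ftl1 at 107 TPM in pool 1 and 115 in pool 2. Blvrb, a biliverdin reductase, had a mean of 6.43 TPM. Of the selenoprotein list 10 of 16 were detected in both pools, and Selenow, a small selenoprotein, had 4314 TPM in pool 1 and 3823 in pool 2. Selenok had 479 TPM in pool 1 and 309.7 in pool 2, and Selenom had 377 TPM in pool 1 and 384 in pool 2. Each of them stood above Gpx4, the highest of the members that use selenocysteine.

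Of the NRF2 regulators 4 of 11 were detected in both pools. Rbx1 and Cul3, parts of the ubiquitin ligase that KEAP1 recruits, had 149.6 and 31.4 TPM in pool 1 and 178.7 and 58.2 TPM in pool 2. Sqstm1, the p62 receptor that binds KEAP1, had 58.5 TPM in pool 1 and 57.7 in pool 2. Among the remaining quinone, aldehyde and NRF2-linked enzymes, 8 of 16 were detected, led by the aldo-keto reductase Akr1a1 at a mean of 123 TPM, then Ncoa7, a coactivator, and Akr1b3, aldose reductase.

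**Figure D4:**
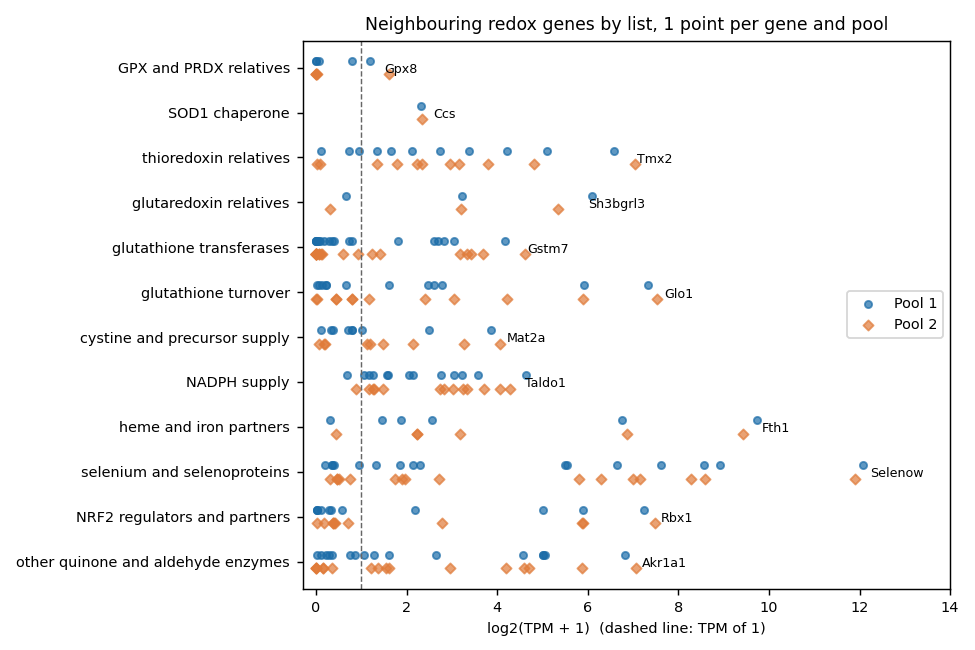
Log2(TPM + 1) of every gene of the 12 neighbouring lists, with pool 1 as circles and pool 2 as diamonds, the gene with the highest mean named and the dashed line at a TPM of 1. Selenow stands furthest right at 4314 TPM in pool 1 and 3823 in pool 2, and the 5 GPX and PRDX relatives sit near or below the line.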

How the data were processed

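Per the labels, cDNA of 2 pools of 30 laser-captured Purkinje cells was prepared by the SMARTer Ultra Low protocol and read on HiSeq instruments. The authors' tables, one per library, used build mm10 and GENCODE M4, as their deposited text files state. No aligner or quantifier is given in the sources used here. The main columns deposited by the authors are expected counts, which are estimated and can be fractional. TPM values, as deposited and corrected for effective length, were the level measure. The deposited FPKM and posterior mean TPM were alternatives only. Each transcript's share of its gene was taken as the percent column deposited by the authors. The labels name no molecular identifiers, so precision from counts covers counting error only. Bias towards the C57BL/6 allele was not tested.

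Of 69691 rows, 43346 were Ensembl genes, of which 42462 matched a symbol in the reference gene table (coordinates and transcript types are from GENCODE M21), and 96 were spike-ins. Spike-ins were held out of totals and tests, as were rows that name no gene, which had 0.000412% of counts in pool 1 and 0.000194% in pool 2. A gene was detected at a TPM of at least 1. Ratios are of expected counts, for genes with at least 10 counts in total, past 2-fold being called. Expected counts were rounded for a two-sided exact binomial test given TMM-scaled totals (edgeR 4.0.16), with Benjamini-Hochberg adjustment over all such genes, and DESeq2 1.42.0 gave other size factors. The calculation was tested on simulated data. With 1 group there was no contrast. Analyses used R 4.3.3, Python 3.11.15, scipy 1.17.1 and pandas 2.3.3.

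The named genes are all 38 members, the 3 highest of each neighbouring list and those past 2-fold, copies and overlapping genes apart from 1 not reported here, and some were named after their values were seen. Members, lists and tests were chosen with earlier results of these data known.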

Additional observations from a re-analysis of the deposited data

How the results depend on the processing

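With other settings the number of members detected in both pools ran from 27 at a TPM of 5 to 38 at a TPM of 0.1, was 33 by posterior mean TPM and 32 by FPKM, and was 32 to 34 in a single pool. The count past 2-fold, 3, was 9 on spike-in totals without centring. The median ratio of -0.29 was -0.52 on TPM + 0.1, -0.46 on total counts and 0.51 on spike-in totals, each uncentred. The binomial test called 27 members with DESeq2 size factors, 31 on total counts, 33 on spike-in totals and 24 with no filter on low counts. On the TPM + 1 scale the signs of Glrx2 (-0.06, against 0.83) and Sod2 (-0.03, against 0.01) turned, and on uncentred total counts Sod2, Gpx1 and Gpx4 moved to the lower side in pool 1. Low members (under 100 counts) are limited by counting error. No paired analysis was possible because there is a single group.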

Other observations

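In the neighbouring lists, 5 genes had at least 10 counts in pool 1 and 0 in pool 2. They were Gstm2 and Hpgds, both glutathione transferase family members, Ggt5, and the transporters Abcc1 and Abcc4. Their counts in pool 1 were 26, 29, 18, 43 and 49. With 3 counts taken as the limit for a library at 0, they were at least 8.85-, 9.87-, 6.12-, 14.6- and 16.7-fold higher in pool 1, relative to the median gene. These are single libraries with no replicate check. The share of all genes with such counts was not calculated, so the 5 cannot be called unusual.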
